A study of Mus musculus with 10 samples.

Results

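Perineuronal nets are lattices of extracellular matrix that wrap the cell bodies and proximal dendrites of certain neurons, in the cortex mainly the fast-spiking interneurons that contain parvalbumin. Hyaluronan chains, spun out at the plasma membrane by hyaluronan synthases, carry chondroitin sulfate proteoglycans of the lectican family, link proteins of the Hapln family clamp the proteoglycans to the hyaluronan, and the trimeric glycoprotein tenascin-R cross-links them. The loose matrix of the juvenile brain is rich in neurocan, versican and tenascin-C, whereas aggrecan, tenascin-R and the link protein Hapln4 mark the condensed net that forms later in postnatal life. The genes described here are 10 listed members of this matrix out of the 30935 genes in the count table: the lecticans Ncan, Bcan, Vcan and Acan, the tenascins Tnc and Tnr, the link protein genes Hapln1, Hapln2 and Hapln4, and the hyaluronan synthase gene Has3. They were chosen by name for their function, with earlier results of these data known, and all 10 matched a gene in the table.

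RNA of the cerebral cortex was sequenced from mice at postnatal day 8. The knockout group (KO, replicates 1, 3, 5, 6 and 8) was homozygous for the ΔHAR.505 deletion in the Rbfox1 locus, and the wild-type group (WT, replicates 2, 4, 5, 6 and 7) was Rbfox1 +/+, with 5 libraries each that the design text calls independent. Human accelerated regions such as HAR.505 are conserved elements that changed quickly during human evolution, and by its title the series concerns enhancers of the RBFOX1 locus. The sources used here give no strain, sex or litter.

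Library totals ran from 16479594 to 22391943 counts. Counts per gene do not cover the deleted element, so they do not check the genotype labels. Rbfox1 itself, a splicing regulator gene of neurons, averaged 215 ± 23.4 CPM in KO and 224 ± 14.4 CPM in WT cortex (SD, n = 5 each; CPM being counts scaled to a common library total with TMM factors). It was not called by edgeR (adjusted p = 0.879). Markers of cortical excitatory neurons were present in all libraries, with a summed level of 3954 to 4399 CPM in KO and 3855 to 3999 CPM in WT for the 8 listed genes. Markers of tissue that borders the cortex differed between libraries, and most had a lower mean in KO. The 12 listed choroid plexus and ependymal markers summed to 122 to 372 CPM in KO and 365 to 453 CPM in WT, with the abundant choroid transcript Ttr at 0 counts in KO replicate 3 (which allows up to 0.166 CPM), at 0.490 CPM in KO replicate 5 and at 5.07 CPM in KO replicate 6. The 12 listed striatal neuron markers summed to 194 to 259.6 CPM in KO and 250.4 to 404 CPM in WT. Mean CPM was lower in KO for 11 of the 12 choroid and ependymal genes, Rsph1 being level, and for all 12 striatal genes, and 2 genes of each list passed the test: Clic6 and Tmem72 of the choroid list, and Six3 and Penk of the striatal list. Tmem72 lost its call without KO replicate 3 (edgeR adjusted p = 0.0965), WT replicate 4 (0.0538) or WT replicate 5 (0.0575), and Penk without KO replicate 3 (0.0608). Bulk RNA cannot tell fewer cells of a type from less RNA per cell.

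No member of the matrix passed the test between the genotypes. The call required a Benjamini-Hochberg adjusted p under 0.05 over all 15488 tested genes in edgeR's quasi-likelihood fit, which 59 genes (0.381%) met. Of the 9 members that passed the count filter 0 were called, and 1, Tnc, had an unadjusted edgeR p under 0.05, where 8.71% of all tested genes did. DESeq2 called 1 member, also Tnc, and 0.801% of all tested genes. With limma-voom 0 members and 0.284% of all tested genes were called. Log2 fold changes of KO over WT were above 0 for 5 members and below 0 for 4, as for 50.9% of all tested genes, and ran from -0.23 for Tnc to 0.21 for Acan. Their median was 0.0035, against -0.0021 over all tested genes.

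**Figure D1:**
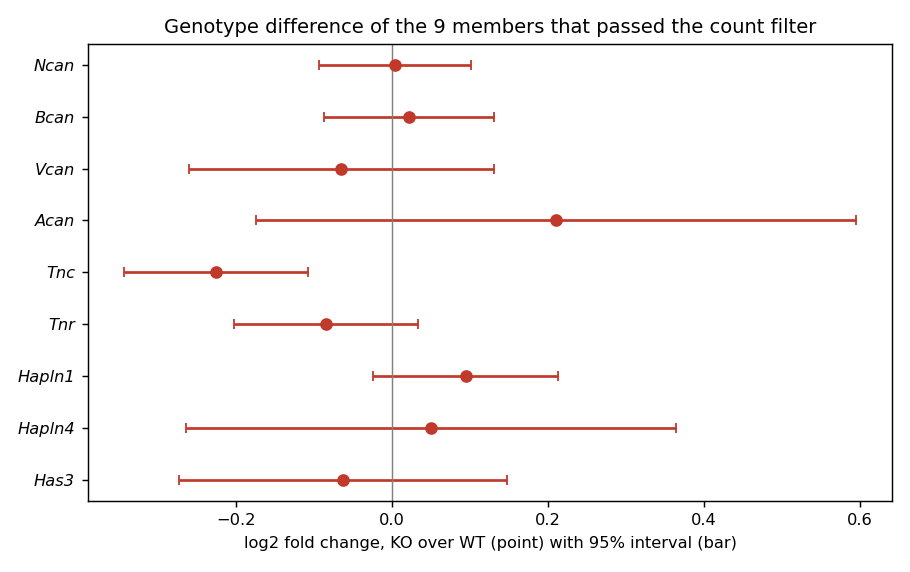
Log2 fold change of KO over WT for the 9 members that passed the count filter, with 95% intervals from the edgeR fit over 5 KO and 5 WT libraries. The interval of Tnc lies wholly below 0, from -0.34 to -0.11, and the other 8 intervals cross 0.

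The members spanned a wide range of levels. Per kilobase of annotated exon, a scale on which genes of unlike length can be set side by side, Ncan was the highest, with 96.0 ± 6.36 CPM per kb in KO and 95.7 ± 4.62 CPM per kb in WT (SD, n = 5 each). It lay at percentile 97.7 of all tested genes in WT. Bcan came next at 70.5 ± 6.21 CPM per kb in KO and 69.5 ± 3.08 CPM per kb in WT, at percentile 96.3. Tnr, Tnc and Hapln1 followed at 15.99, 13.2 and 13.2 CPM per kb in WT and at 15.1, 11.3 and 14.1 in KO. Their ranges over all libraries overlapped. Read within each library, Tnr was above Tnc in 10 of 10, while Tnc was above Hapln1 in 0 of 5 KO and 4 of 5 WT libraries. Vcan stood at 5.87 ± 0.826 in KO and 6.14 ± 0.676 CPM per kb in WT.

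Below these came the other members of the condensed net and the hyaluronan synthase. Has3 averaged 2.29 CPM per kb in KO and 2.39 CPM per kb in WT, and Hapln4 1.79 CPM per kb in KO and 1.73 CPM per kb in WT; the ranges of these neighbours overlapped, but Has3 was above Hapln4 in each of the 10 libraries. Acan stood at 0.588 ± 0.0995 CPM per kb in KO and 0.508 ± 0.0788 CPM per kb in WT, at percentile 8.83 of tested genes. Of the mature trio, Tnr was at percentile 78.4 in WT, far above Hapln4 at percentile 24.0 and Acan. Hapln2 came last at 0.157 CPM per kb in KO and 0.0871 CPM per kb in WT. These lengths join the exons of every annotated transcript, so the level of a gene with long alternative exons, such as Vcan, is understated where a shorter form prevails.

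**Figure D2:**
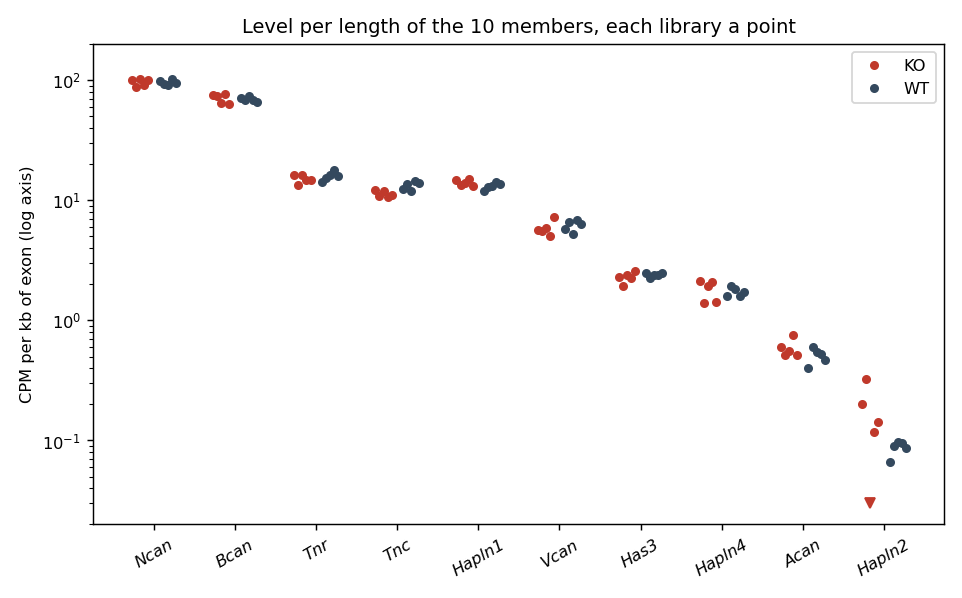
CPM per kilobase of exon on a log axis for the 10 members, ordered by their WT mean, with each library a point (KO left, WT right) and a triangle for the KO library with 0 Hapln2 counts. Levels fall from about 96 CPM per kb for Ncan to under 1 CPM per kb for Acan and Hapln2, and the points of both genotypes overlap for each member.

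Neurocan, a secreted lectican of young brain, had nearly the same level in both genotypes. Ncan was measured at 716, 630.0, 729.8, 653 and 724 CPM in KO replicates 1, 3, 5, 6 and 8, against 702, 662, 659.9, 739.9 and 679.5 CPM in WT replicates 2, 4, 5, 6 and 7. The lowest library was KO replicate 3 and the highest WT replicate 6, and the groups overlapped. The fold of KO over WT was 1.002 with a 95% interval from 0.937 to 1.07, the narrowest interval on the log scale among the members (edgeR adjusted p = 0.995).

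Brevican, a lectican made by astrocytes and by cells of the oligodendrocyte lineage and also found at nodes of Ranvier, was spread more widely among the KO libraries. Bcan had 306, 298, 263, 310.5 and 256 CPM in KO replicates 1, 3, 5, 6 and 8, and 287, 279, 301, 279 and 267 CPM in WT replicates 2, 4, 5, 6 and 7. The highest and the lowest library of all 10 were both KO, replicates 6 and 8. The coefficient of variation was 8.80% in KO and 4.42% in WT, while the log2 fold change was 0.02 (SE 0.053, adjusted p = 0.961). The 12 astrocyte markers summed to 3997, 4178, 4256, 4458 and 3809.7 CPM in KO replicates 1, 3, 5, 6 and 8, and the 8 oligodendrocyte precursor markers to 643, 650.1, 646, 711 and 637 CPM. Both sums were highest in replicate 6 and lowest in replicate 8, as Bcan was, but replicate 5 had the second highest astrocyte sum with low Bcan and replicate 1 the reverse. Their part in the Bcan values was not tested.

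In 4 of the 5 KO libraries Ncan and Bcan stood on opposite sides of their groups. KO replicates 5 and 8 were high for Ncan and low for Bcan, and replicates 3 and 6 the reverse. The ratio of Ncan to Bcan, per kilobase, was therefore 1.57 and 1.59 in KO replicates 5 and 8 but 1.195 and 1.187 in KO replicates 3 and 6, with 1.32 in replicate 1. In WT it ran from 1.24 to 1.496, and the means were 1.37 ± 0.198 in KO and 1.38 ± 0.0979 in WT (SD, n = 5 each). Summed over the 4 lecticans the level per kilobase was 173 ± 5.11 in KO and 172 ± 4.94 in WT. Ncan made up 55.5% and Bcan 40.8% of that sum in KO, against 55.7% and 40.5% in WT.

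Versican, the lectican of the loose embryonic and juvenile matrix, had its highest and its lowest library in the KO group. Vcan stood at 81.5, 79.6, 85.1, 73.3 and 104.8 CPM in KO replicates 1, 3, 5, 6 and 8, and at 82.7, 95.1, 75.2, 99.5 and 91.2 CPM in WT replicates 2, 4, 5, 6 and 7. KO replicate 8 lay above all other libraries and KO replicate 6 below them. The log2 fold change was -0.07 with a 95% interval from -0.26 to 0.13 (edgeR adjusted p = 0.918). It moved to -0.15 without KO replicate 8 (adjusted p = 0.380) and to -0.016 and -0.015 without KO replicate 6 and without WT replicate 6. Gene counts do not separate the splice forms of versican, which differ in their chondroitin sulfate attachment regions.

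Aggrecan, the lectican on which the assembly of perineuronal nets depends, had the lowest level per kilobase of the 9 tested members. Acan had 75, 69, 68, 101 and 69 counts in KO replicates 1, 3, 5, 6 and 8, or 4.49, 3.81, 4.16, 5.63 and 3.86 CPM. In WT replicates 2, 4, 5, 6 and 7 it had 57, 84, 71, 87 and 68 counts, or 2.99, 4.51, 4.11, 3.91 and 3.46 CPM. The groups overlapped, with KO replicate 6 highest and WT replicate 2 lowest. The fold was 1.16, and its 95% interval from 0.886 to 1.51 was the widest of the 9 tested members (adjusted p = 0.851).

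**Figure D3:**
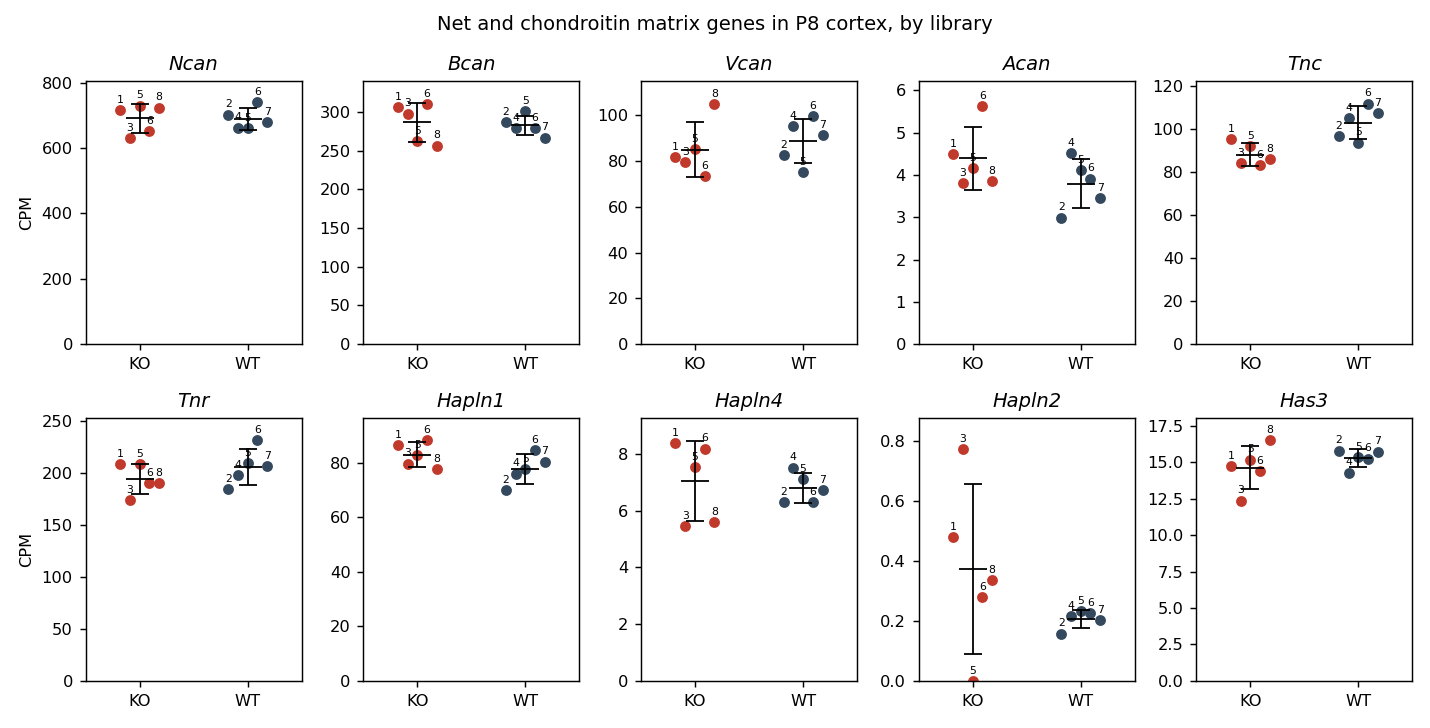
CPM of each member in the 5 KO libraries (left, red) and the 5 WT libraries (right, dark), labelled by replicate number, with the group mean and SD as black bars; every axis starts at 0. KO and WT points overlap in each panel, and in the Tnc panel only KO replicate 1, at 95.1 CPM, lies above any WT library.

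Tenascin-C, the hexameric tenascin of radial glia, astrocyte precursors and germinal zones, was the member with the smallest p. Tnc had 95.1, 84.0, 92.0, 83.3 and 86.1 CPM in KO replicates 1, 3, 5, 6 and 8, and 96.7, 105, 93.7, 112 and 108 CPM in WT replicates 2, 4, 5, 6 and 7. The KO libraries lay below the WT libraries but for KO replicate 1, which was above WT replicate 5. The means were 88.1 ± 5.22 CPM in KO and 103 ± 7.58 CPM in WT (SD, n = 5 each), a fold of 0.855 with a 95% interval from 0.788 to 0.928. The log2 fold change of -0.23 (SE 0.058) had an unadjusted edgeR p of 0.000494, the rank of 88 among 15488 genes, and an adjusted p of 0.0854, so Tnc was not called. An exact two-sided permutation test of its log2 CPM over all 252 divisions of the libraries gave p = 0.0159, where the smallest attainable is 0.00794.

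Whether Tnc counted as changed depended on the fit. It passed with DESeq2 (adjusted p = 0.0444), which called 0.801% of its tested genes, and in edgeR with no filter on low counts (adjusted p = 0.0146), where 0.733% were called. With any single library left out, in 10 fits, it stayed below 0, at -0.26 to -0.19, with adjusted p between 0.0653 and 0.273. Choroid and striatal marker levels also differed between the genotypes, both lower in KO. With the mean log2 CPM of the choroid list as a covariate the log2 fold change was -0.13 (SE 0.096, edgeR adjusted p = 0.9997). With that of the striatal list it was -0.29 (SE 0.11, edgeR adjusted p = 0.9999). The unadjusted edgeR p was 0.182 and 0.0124, in fits that called 0 and 1 genes of the whole table. In WT and the 2 KO libraries with most Ttr, replicates 1 and 8, the log2 fold change of Tnc was -0.18 (SE 0.077, edgeR adjusted p = 0.635).

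Tenascin-R, made largely by oligodendrocyte lineage cells and some interneurons, differed less. Tnr was measured at 208, 174, 209, 190.0 and 189.9 CPM in KO replicates 1, 3, 5, 6 and 8, against 184, 198, 209, 231 and 207 CPM in WT replicates 2, 4, 5, 6 and 7. WT replicate 6 was the highest and KO replicate 3 the lowest library, and the ranges overlapped over most of their length. The log2 fold change was -0.08 with a 95% interval from -0.20 to 0.03 (edgeR adjusted p = 0.747). Set against each other in the same library, Tnc reached 0.455 ± 0.0180 of the Tnr CPM in KO and 0.502 ± 0.0357 in WT (SD, n = 5 each), given here as a description since both genes are members. WT replicates 5 and 6, at 0.448 and 0.4833, lay inside the KO range of 0.438 to 0.4838, and the other 3 WT libraries had 0.520 to 0.532.

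The link protein genes showed no call. Hapln1, which encodes the link protein needed for nets of normal density in mouse cortex, had 86.4, 79.6, 82.7, 88.4 and 77.6 CPM in KO replicates 1, 3, 5, 6 and 8, and 69.9, 75.9, 77.6, 84.5 and 80.3 CPM in WT replicates 2, 4, 5, 6 and 7. Its log2 fold change was 0.09 (SE 0.058, adjusted p = 0.705), with KO replicate 6 highest, WT replicate 2 lowest and the groups overlapping. Hapln4, known as Bral2 and a partner of brevican in hindbrain nets of the mouse, had 8.38, 5.47, 7.53, 8.19 and 5.59 CPM in KO replicates 1, 3, 5, 6 and 8. Its WT values were 6.30, 7.52, 7.12, 6.30 and 6.72 CPM in replicates 2, 4, 5, 6 and 7. The KO libraries fell both above and below the WT range, with a coefficient of variation of 20.02% in KO and 7.84% in WT. The fold was 1.04, with a 95% interval from 0.833 to 1.29 (edgeR adjusted p = 0.971).

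Hapln2, known as Bral1 and a component of the matrix at nodes of Ranvier, was barely detected at this age. It had 8, 14, 0, 5 and 6 counts in KO replicates 1, 3, 5, 6 and 8, and 3, 4, 4, 5 and 4 counts in WT replicates 2, 4, 5, 6 and 7. It did not pass the count filter and was not tested. The 0 counts of KO replicate 5 allow up to 0.184 CPM from counting error alone. Among the oligodendrocyte markers, the late genes Ermn and Opalin were also too low to test, with 31 and 3 counts over all KO libraries and 47 and 6 over all WT libraries.

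Has3, the synthase that makes shorter hyaluronan chains, had 14.7, 12.4, 15.2, 14.4 and 16.5 CPM in KO replicates 1, 3, 5, 6 and 8, and 15.8, 14.3, 15.3, 15.2 and 15.7 CPM in WT replicates 2, 4, 5, 6 and 7. The WT libraries were close together, and the KO group held the highest and the lowest library, replicates 8 and 3. The log2 fold change was -0.06 with a 95% interval from -0.27 to 0.15 (edgeR adjusted p = 0.935). A larger coefficient of variation in KO than in WT was found in 7 of the 10 members, and in 62.2% of all tested genes.

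Members lie beside each other in the genome in lectican and link protein pairs, which the choice of members did not use. In the RefSeq gene order of GRCm38, with protein-coding genes alone, Ncan is next to Hapln4 on chromosome 8, Bcan next to Hapln2 on chromosome 3, Vcan next to Hapln1 on chromosome 13, and Acan next to Hapln3 on chromosome 7. Hapln3, the link protein gene outside the member list, is named here after its values were seen. Levels within a pair were unlike. Per kilobase, Ncan was 53.6 times Hapln4 in KO and 55.3 times in WT, whereas Vcan was 0.418 times Hapln1 in KO and 0.466 times in WT, and Acan 0.281 times Hapln3 in KO and 0.275 times in WT. Bcan was 448 times Hapln2 in KO and 799 times in WT, ratios that rest on the few Hapln2 counts. Hapln3 averaged 7.35 ± 2.08 CPM in KO and 6.50 ± 0.935 CPM in WT (SD, n = 5 each), with a difference of 0.18 on the log2 scale (SE 0.17, edgeR adjusted p = 0.866). Its KO libraries split, with 9.16, 7.90 and 9.36 CPM in replicates 3, 5 and 6, the libraries with least Ttr, and 5.39 and 4.92 CPM in replicates 1 and 8.

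The balance of juvenile and mature net genes overlapped between the genotypes. For each library the mean log2 CPM of Acan, Hapln4 and Tnr was subtracted from that of Ncan, Vcan and Tnc, so a higher value means relatively more juvenile transcript. The difference was 3.14, 3.37, 3.24, 2.93 and 3.52 in KO replicates 1, 3, 5, 6 and 8, and 3.53, 3.30, 3.17, 3.48 and 3.46 in WT replicates 2, 4, 5, 6 and 7. The groups overlapped, and KO replicate 6, with the highest Acan and the lowest Vcan and Tnc, was the lowest of the 10 libraries. The group means were 3.24 ± 0.227 in KO and 3.39 ± 0.149 in WT (SD, n = 5 each). KO minus WT was -0.15, less than the SD of the KO libraries, and -0.068 without KO replicate 6. As a score over chosen genes it carries no p. Single genes show what it averages: of the juvenile trio Ncan was at 0.00 and Tnc at -0.23 on the log2 scale, and of the mature trio Acan was at 0.21 and Tnr at -0.08.

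**Figure D4:**
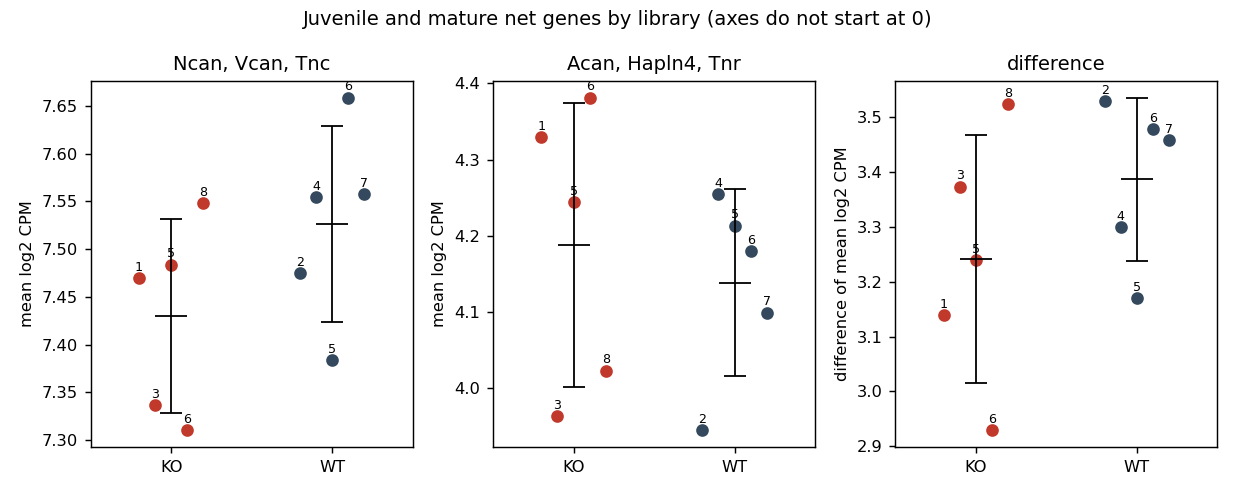
Mean log2 CPM of the juvenile genes Ncan, Vcan and Tnc (left), of the mature genes Acan, Hapln4 and Tnr (middle), and their difference (right) in each KO and WT library, with replicate numbers and the group mean and SD. The difference ranges from 2.93 to 3.52 in KO and from 3.17 to 3.53 in WT, so the groups overlap.

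Summed marker levels of the cells that make and carry this matrix overlapped between the genotypes. The 12 astrocyte markers summed to 3809.7 to 4458 CPM in KO and 3654 to 4146 CPM in WT. Of these 12 genes, 3 had an unadjusted edgeR p under 0.05, all higher in KO, with 0 called. Of all tested genes 4.19% were higher in KO at that level. The oligodendrocyte precursor markers summed to 637 to 711 CPM in KO and 628 to 679.55 CPM in WT, with 0 of 8 at an unadjusted p under 0.05. Of the interneuron genes, Pvalb itself had 49 counts over all KO libraries and 61 over all WT libraries and was too low to test. The sums of the 10 listed parvalbumin interneuron genes were 408 to 483 CPM in KO and 446 to 479 CPM in WT. Such sums follow the most abundant genes of a list, and single genes can differ beneath them. Of the 9 that were tested, 2 were higher and 2 lower in KO at an unadjusted edgeR p under 0.05. The shares over all tested genes were 4.19% and 4.52%.

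The enzymes, receptors and ligands around the matrix were surveyed in 6 lists of 87 genes, of which 85 were tested. In edgeR 0 of them passed the adjusted threshold, where 0.381% of all tested genes did. DESeq2 called 2 (Sema3a and Kcns3), beside 0.801% of all tested genes, and limma-voom 0, beside 0.284%. An unadjusted edgeR p under 0.05 was reached by 13 (15.3%), 6 higher and 7 lower in KO, against 8.71% of all tested genes. In 4 genes (4.71%) the genotypes did not overlap in CPM, as in 1.83% of all tested genes. The lists were chosen with earlier results of these data known, so these shares are a description and not a test. Otx2 and Tac1, among the 13, also stand in the choroid and striatal lists.

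Chondroitin sulfate synthesis, from the linker sugars to the sulfotransferases, comprised 21 tested genes with a median log2 fold change of 0.02. Ust, which encodes the uronyl 2-O-sulfotransferase that acts on chondroitin and dermatan sulfate, was measured at 54.7, 53.3, 53.4, 47.6 and 46.9 CPM in KO replicates 1, 3, 5, 6 and 8, and at 38.0, 40.3, 46.4, 45.3 and 45.0 CPM in WT replicates 2, 4, 5, 6 and 7. Every KO library lay above every WT library, by a narrow margin, as in 0.93% of tested genes, yet the log2 fold change of 0.25 (SE 0.070) did not pass (adjusted p = 0.139). Ust was called with no filter on low counts and without KO replicate 8 (adjusted p = 0.0391 in both edgeR fits). Csgalnact2, which encodes an enzyme that starts and extends the chondroitin chain, averaged 25.5 ± 1.55 CPM in KO and 22.3 ± 1.21 CPM in WT (log2 fold change 0.19, adjusted p = 0.457). The chondroitin 4-O-sulfotransferase gene Chst12 averaged 19.7 ± 0.983 CPM in KO and 23.1 ± 2.16 CPM in WT (log2 fold change -0.23, adjusted p = 0.403).

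Other proteoglycans and partners of the matrix, with Ptprz1, the gene of phosphacan, among them, comprised 13 tested genes, with 0 at an unadjusted edgeR p under 0.05. The smallest p values belonged to Crtac1 (log2 fold change 0.14, SE 0.082), to the cell adhesion gene Nrcam (0.08, SE 0.052) and to Cspg5, which encodes neuroglycan C (0.06, SE 0.043). Hyaluronan turnover gave 1 of 10 at that level: the hyaluronan receptor gene Cd44 averaged 18.02 ± 2.27 CPM in KO and 22.6 ± 2.62 CPM in WT, or -0.33 on the log2 scale (SE 0.10, edgeR adjusted p = 0.239). The hyaluronan-degrading factor gene Cemip stood at 0.16 (SE 0.091) and the hyaluronidase gene Hyal2 at -0.13 (SE 0.12). Of the 17 tested proteases and inhibitors that could cut the lecticans, 0 reached an unadjusted p under 0.05, and Adamts15, which encodes a versican-cleaving protease, had the smallest p (log2 fold change -0.20, SE 0.12), before the membrane metalloprotease genes Mmp14 (-0.08, SE 0.061) and Mmp16 (-0.09, SE 0.069).

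Among the 15 receptors and ligands of nets, Sema3a came nearest to a call. It encodes semaphorin 3A, a chemorepellent that binds to chondroitin sulfate in nets, and had 35.3, 34.3, 38.8, 29.97 and 41.4 CPM in KO replicates 1, 3, 5, 6 and 8, and 42.6, 43.4, 46.1, 45.6 and 43.6 CPM in WT replicates 2, 4, 5, 6 and 7. Every KO library was below every WT library, as in 0.897% of tested genes. The log2 fold change was -0.30 (SE 0.075) with an adjusted p of 0.0821 in edgeR. It passed with DESeq2 (adjusted p = 0.0362), with no filter on low counts (0.0103) and without KO replicate 8 (0.0118, where 1.16% of genes were called). With the choroid covariate its log2 fold change was -0.20 (SE 0.13) and with the striatal covariate -0.09 (SE 0.13), and neither was called; these fits called 0 and 1 genes of the whole table.

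Nptx2, the gene of a neuronal pentraxin that gathers AMPA receptors at synapses on parvalbumin cells, had 18.9 to 24.5 CPM in KO and 24.9 to 26.1 CPM in WT, without overlap (log2 fold change -0.23, SE 0.087, edgeR adjusted p = 0.391). Otx2, the gene of a homeoprotein that is secreted by the choroid plexus and taken up by net-bearing cells, stood at 0 to 0.838 CPM in KO and 0.577 to 1.74 CPM in WT. It had 0 counts in KO replicates 3 and 6, and its log2 fold change of -2.16 (SE 0.62) had an adjusted p of 0.185. It was called with no filter (adjusted p = 0.00457) and without KO replicate 1 (0.0452). Otx2 also belongs to the choroid list, whose levels were low in the same libraries. With the choroid covariate the log2 fold change of Otx2 was 0.33. That covariate includes Otx2, so the fit adjusts the gene partly for itself.

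Of the 9 tested parvalbumin interneuron genes, 2 were higher and 2 lower in KO at an unadjusted edgeR p under 0.05. Of all tested genes 4.19% were higher and 4.52% lower at that level. Kcns3, a modulatory potassium channel subunit gene, had 7.36, 4.75, 6.12, 6.07 and 5.99 CPM in KO replicates 1, 3, 5, 6 and 8, and 4.35, 3.33, 2.89, 4.72 and 3.77 CPM in WT replicates 2, 4, 5, 6 and 7. The groups touched without overlapping, KO replicate 3 lying just above WT replicate 6, and the log2 fold change was 0.66 (SE 0.18, adjusted p = 0.122). It passed with DESeq2 (adjusted p = 0.0399). The fast potassium channel gene Kcnc2 averaged 56.6 ± 4.51 CPM in KO and 49.3 ± 4.07 CPM in WT (log2 fold change 0.20, edgeR adjusted p = 0.317). Tac1, the tachykinin precursor gene, averaged 11.1 ± 1.60 CPM in KO and 14.98 ± 2.77 CPM in WT (log2 fold change -0.42, adjusted p = 0.197). Tac1 is also a striatal gene and stands in the list of striatal markers, which were lower in KO. The other gene that was lower at an unadjusted p under 0.05 does not stand in that list.

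**Figure D5:**
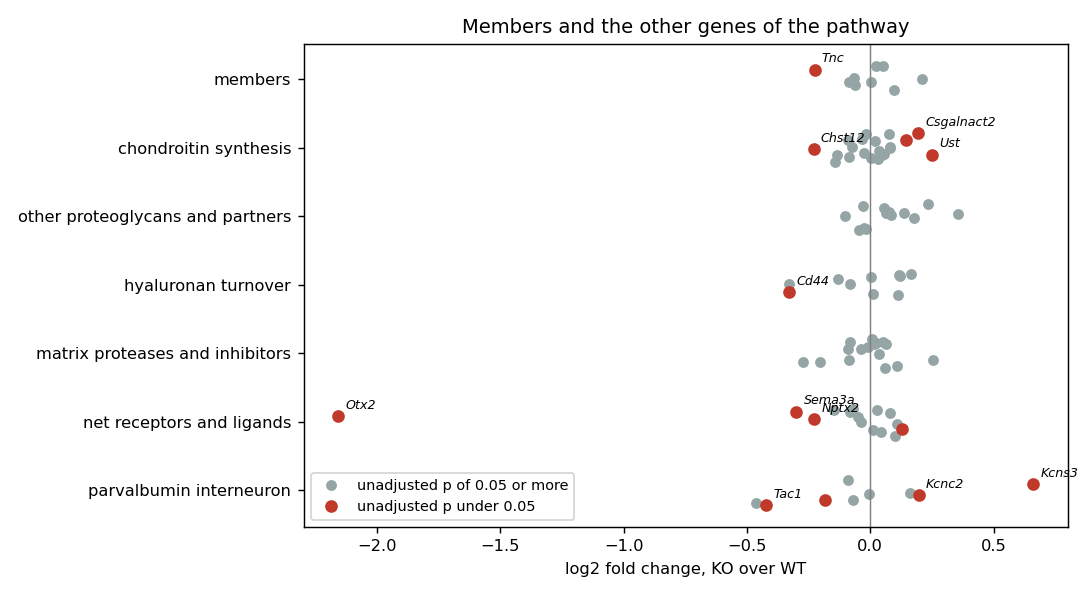
Log2 fold change of KO over WT for the tested members and the tested genes of the 6 surrounding lists, with red points for an unadjusted edgeR p under 0.05 and names for the genes described. Most points lie close to 0, and Otx2 at -2.16 and Kcns3 at 0.66 lie farthest out.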

How the data were processed

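The authors deposited raw counts per Entrez gene for 10 cortex libraries in 1 table. Per the submitters' processing notes, HISAT2 and featureCounts were used, with the build mm39. The sources used here give no annotation, strand setting or handling of multi-mapped reads, so reads of a gene and of its antisense partner cannot be told apart. Symbols came from RefSeq (GRCm38.p6), which matched 30648 of 30935 identifiers, and exon lengths from GENCODE M21. This build is not the authors' and was used for names, gene order and lengths.

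Genotypes were compared in R 4.3.3 with edgeR 4.0.16 (filterByExpr, TMM, robust quasi-likelihood F test, genotype as the sole term, two-sided), with adjustment over all tested genes. SEs were derived from the F statistic. Scores used log2 CPM with a prior count of 2. Library pairs of a genotype differed by more than sampling noise (chi-square per degree of freedom 4.10 to 13.9). Each library was counted as 1 replicate, and the design text calls them independent. That spread alone does not show that they came from separate animals. DESeq2 1.42.0 and limma-voom (limma 3.58.1), other scalings, filters, covariates and left-out libraries were alternatives. The code was tested on simulated counts.

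Members and lists were chosen with earlier results of these data known. Named beside the members were, per surrounding list, the 3 genes with the smallest p and any called gene, any called cell type marker, Rbfox1 and Ttr. Floors cover counting error only.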

Additional observations from a re-analysis of the deposited data

Results flagged for a closer look

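The highest and the lowest library of each genotype were compared with the other 4 for the members and the named genes. Of 72 such groups, 1 had a library far from the rest, and about 1 in 20 would by chance. KO replicate 3 had 14.08 CPM of Cd44, the hyaluronan receptor gene, against 18.16 to 19.64 CPM in the other KO libraries. The same library had the lowest Ncan, Tnr, Hapln4 and Has3 of all 10.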

How the results depend on the processing

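The number of genes called over the whole table was 59, and 171 with no filter, 124 with DESeq2, 0 in edgeR with the choroid covariate (where 753 had an unadjusted p under 0.05 and the striatal covariate left 1), 12 without KO replicates 3, 5 and 6 together, and 15 to 182 when single libraries were left out. Those that moved it by over 1.5 times were WT replicates 2, 4 and 5 (15, 21 and 17) and KO replicates 3, 6 and 8 (17, 37 and 182). The number of members called was 0, and 1 (Tnc) with DESeq2 and with no filter. It was 0 in each fit that left out a single library. The juvenile minus mature difference stayed within 1 SD of -0.15, at -0.22 to -0.068 when single libraries were left out. The cause of these shifts was not tested, except that fewer libraries enter some fits.

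Groups share the replicate numbers 5 and 6. With the replicate number as a block, the genotype difference rests on replicates 5 and 6 of each group alone, since every other number occurs once. In that fit 27 genes and 0 members were called, and Tnc was -0.23 (edgeR adjusted p = 0.9996). It therefore does not speak for all 10 libraries. Deviations of same-numbered libraries correlated at -0.0303 and -0.0566 over 15488 genes. Those of KO replicate 5 with WT replicate 6 and of KO replicate 6 with WT replicate 5 correlated at 0.0831 and 0.0063. So few pairs cannot tell whether same-numbered libraries share a litter or a batch. Otx2 was called under the block (-4.68, edgeR adjusted p = 0.00832), and Bcan turned to -0.021 and Ncan to -0.018 under the block.

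Other turns of sign concerned log2 fold changes that were not called. With the choroid covariate they were Vcan 0.076, Tnr 0.028, Has3 0.097, Crtac1 -0.039, Cspg5 -0.016, Hapln3 -0.51, Hyal2 0.084, Otx2 0.33, Rbfox1 0.16 and Ttr 1.23. Otx2 and Ttr are themselves part of that covariate. With the striatal covariate they were Vcan 0.031, Hapln4 -0.013, Has3 0.069, Crtac1 -0.17, Nrcam -0.064, Cemip -0.0999, Hapln3 -0.61 and Rbfox1 0.16. Without KO replicates 3, 5 and 6 they were Bcan -0.0049, Vcan 0.072, Has3 0.034, Crtac1 -0.048, Hapln3 -0.33 and Rbfox1 0.092. Upper-quartile scaling gave Ncan -0.0029. Over the fits that left out single libraries, Ncan ran from -0.015 to 0.036, Bcan from -0.0088 to 0.062 and Hapln4 from -0.0195 to 0.13. The depth left Hapln2, with 0 to 14 counts per library, untested.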
